A study of Mus musculus with 233 samples.

Results

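The synaptic vesicle release genes are 37 genes of synaptotagmins, the fusion machinery, complexins, vesicle proteins and the active zone. They were chosen by symbol from a list sorted by known role and not by measured values, though with earlier results of these data known. The 37 genes were looked up among the 41129 gene entries of the deposited count table. All 37 were found and passed the filter on low counts in every fit. By role they are 3 fast calcium sensors (Syt1, Syt2 and Syt9), 11 other synaptotagmins (Syt3, Syt4, Syt5, Syt6, Syt7, Syt10, Syt11, Syt12, Syt13, Syt16 and Syt17), 5 genes of the fusion machinery (Snap25, Vamp1, Vamp2, Stx1a and Nsf), 3 complexins (Cplx1, Cplx2 and Cplx3), 9 vesicle proteins (Syn1, Syn2, Syn3, Syp, Sv2a, Sv2b, Sv2c, Rab3a and Rab3b) and 6 active zone genes (Rims1, Rims2, Unc13a, Unc13c, Bsn and Pclo).

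Bulk RNA-seq of mouse striatum gave 233 libraries from 120 mice, of which 113 gave a library from each hemisphere and 7 gave 1. The mutant mice were zQ175 heterozygotes, in which exon 1 of the mouse Htt gene is replaced by exon 1 of human HTT with an expanded CAG repeat, and the mice they were set against were wild-type (WT) littermates. Each hemisphere received an adeno-associated virus carrying 1 of 3 inserts. nZFP is an HA-tagged zinc finger repressor (ZFP30645) of expanded CAG repeats driven by the human synapsin promoter, so that it is made in neurons. DBD is the same construct without its DNA-binding domain, and Estop is a stuffer from which no protein is made. Both DBD and Estop are control viruses, and no group was left without virus. The 2 hemispheres of a mouse received different viruses. There were 5 schedules, named by the ages at injection and at collection: 2M_6M (injected at 2 months of age and collected at 6), 2M_8M (2 and 8), 6M_8M (6 and 8), 6M_10M (6 and 10) and 6M_12M (6 and 12), with 46, 47, 48, 46 and 46 libraries. The 30 groups of genotype, virus and schedule held 6 to 8 libraries each, all from different mice within a group. Both sexes were used and sex was a term of every fit. Whole striatal tissue holds many cell types, and in such bulk samples fewer cells of a type and less RNA per cell cannot be told apart.

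At a nerve terminal, vesicles loaded with transmitter are held near the release site by scaffold proteins of the active zone, primed by Munc13 proteins (the Unc13 genes) and fused with the plasma membrane by the SNARE proteins synaptobrevin (Vamp1, Vamp2), syntaxin-1 (Stx1a) and SNAP-25 (Snap25). Calcium entering with an action potential binds synaptotagmin-1, synaptotagmin-2 or synaptotagmin-9 on the vesicle, and, together with complexin, these sensors trigger fast, synchronous fusion. The striatum's principal neurons are inhibitory medium spiny neurons, whose axon branches form synapses within the tissue; axons that arrive from cortex, thalamus and midbrain contribute terminals whose messenger RNA is for the most part made outside it.

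The total of gene counts per library was 2.80e+07 to 6.13e+07 (median 3.74e+07). Reads of the repressor transgene had a median of 595 CPM (counts scaled to a library size of 1e+06) in nZFP libraries, 8.26 CPM in DBD libraries and 10.6 CPM in Estop libraries, leaving aside 4 libraries whose vector reads go against their label. Of these, the 2 libraries labelled WT DBD replicates 7 and 8 of 6M_8M held 321 and 480.5 CPM of the transgene. The library labelled replicate 8 also held 6 counts of the human exon, against at most 2 in the other 75 WT libraries with DBD or Estop. That goes against its genotype label as well, and it had 1160 CPM of Syp and 13.5 CPM of Syt9. The library labelled replicate 7 held 0 counts of the human exon, with 886 CPM of Syp and 13.8 CPM of Syt9. Of the other 2, the library labelled zQ175 nZFP replicate 5 of 6M_8M held 8.55 CPM of the transgene and 0 counts of the human exon. It had 646 CPM of Syp and 25.5 CPM of Syt9. WT DBD replicate 6 of 2M_6M held 59.2 CPM of the vector's shared 3' element, against 2874 CPM in replicate 5 of its group. In the comparisons below Syp was higher and Syt9 lower in zQ175 DBD than in WT DBD libraries. Whether libraries of 6M_8M were exchanged between groups was not tested. A further 3 libraries stood apart by a loss of long transcripts, measured by a length index (the median log2 difference from the schedule's median library in the longest 25% of genes, minus the same in the shortest 25%). The index was -1.20 in zQ175 DBD replicate 3 of 2M_6M, -1.13 in WT DBD replicate 2 of 6M_10M and -1.29 in zQ175 nZFP replicate 2 of 6M_10M, and the next lowest was -0.88 in WT nZFP replicate 8 of 6M_8M. Release genes are long (median summed exon length 5539 bases, against 4158 bases over 16664 genes tested), so results that rest on these libraries are given with and without them. Reads of the human exon, counted under an entry of their own, had a median of 2 to 5.5 counts a library over zQ175 DBD and zQ175 Estop libraries of the 5 schedules and of 0 over the WT libraries. Htt itself, the gene that carries the repeat, was lower in zQ175 DBD than in WT DBD libraries in 2M_6M (log2 fold change -0.54 ± 0.10) and 2M_8M (-0.53 ± 0.18). Between zQ175 nZFP and zQ175 DBD libraries its log2 fold changes were -0.45 to -0.06 and did not pass the test in any schedule. In 2M_6M Htt was also lower in zQ175 DBD than in zQ175 Estop libraries (-0.45 ± 0.10, adjusted p 0.019). Between zQ175 nZFP and WT nZFP libraries Htt was lower in 2M_6M (-0.75 ± 0.10), 6M_10M (-0.99 ± 0.19) and 6M_12M (-0.65 ± 0.20).

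In WT striatum the members spanned a wide range of abundance, which can be compared between genes on the TPM scale (the share of transcripts scaled to 1e+06, which allows for length). Over the 116 WT libraries, Snap25, the plasma membrane SNARE of regulated fusion, had the highest median at 1082 TPM (619 to 1307). Cplx2 followed at 843 TPM, Vamp2, the main synaptobrevin of forebrain vesicles, at 731 TPM, and synaptophysin (Syp), an abundant vesicle membrane protein, at 531 TPM. The ranges of these 4 genes over WT libraries overlapped, so the order of neighbours is not separated from their spread. Among the 3 fast calcium sensors Syt1 dominated, with 403 TPM (146 to 569), against 23.7 TPM (8.94 to 36.8) for Syt2 and 15.1 TPM (7.21 to 21.4) for Syt9. Syt1's lowest WT library was above the highest of Syt2 and Syt9, whose own ranges overlapped. Among the other synaptotagmins, Syt11, which binds no calcium, was the most abundant at 443 TPM and Syt17 the least at 2.03 TPM. Of the vesicle proteins, Sv2a (186 TPM) exceeded Sv2b (80.5 TPM) and Sv2c (21.7 TPM), and of the synapsins, which tether vesicles to each other, Syn1 (131 TPM) and Syn2 (123 TPM) were close and Syn3 was low (7.38 TPM). The active zone genes lay between 82.0 TPM for Unc13c and 21.7 TPM for Pclo. Cplx3, a complexin known from retinal ribbon synapses and cortical subplate neurons, was lowest of all at 0.32 TPM, and its values rest on few reads.

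**Figure D1:**
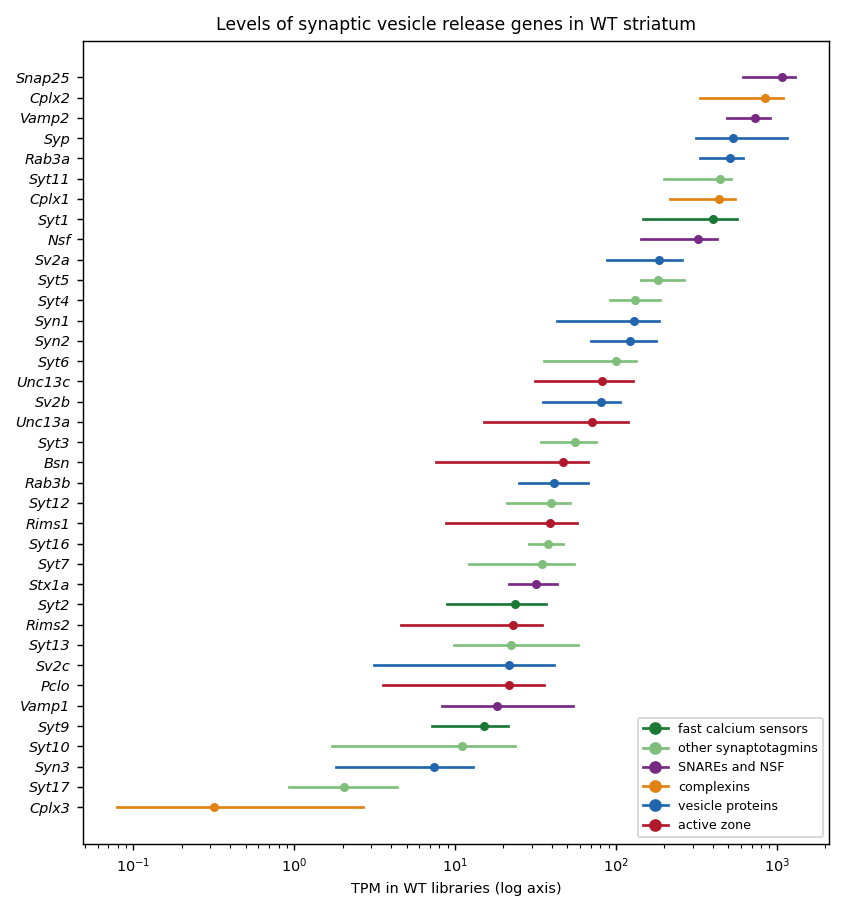
Levels of the 37 release genes in WT striatum on a log axis of TPM, coloured by role. Points are medians and lines run from the lowest to the highest of 116 WT libraries; medians fall between 1082 TPM for Snap25 and 0.32 TPM for Cplx3.

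Members differed in how steady they were between mice of a group. The standard deviation of log2(CPM + 0.5) between libraries of a group, pooled over the 6 groups of a schedule, had a median over members of 0.16 in 2M_8M to 0.22 in 6M_8M. Vamp2 (0.06 to 0.10 over the schedules) and Snap25 (0.09 to 0.13) were among the steadiest. The giant scaffold genes were the least steady in 6M_12M, with 1.03 for Bsn and 1.01 for Pclo, against 0.30 and 0.26 in 2M_6M. The length index in 6M_12M ran down to -0.72 in single libraries.

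The first question was how the release genes differed between zQ175 and WT striatum under the DBD control virus. A fast calcium sensor pair, Syt2 and Syt9, was lower in zQ175 striatum in all 5 schedules, with log2 fold changes of -1.01 to -0.70, and Syt12 was lower and Syp higher in all 5 as well. Syt1, the dominant sensor, and the 5 genes of the fusion machinery did not pass the test in any schedule; of the 25 values of the fusion genes, 2 had an unadjusted p under 0.05, DESeq2 called 1, and a fit with the length index as a covariate called 2, both of them Snap25 (-0.10 in 6M_10M and -0.14 in 6M_12M). In all, 15 of the 37 members passed in at least 1 schedule, 4 of them in 5, 1 in 3, 4 in 2 and 6 in 1, while 22 passed in none. The members that passed in at least 1 schedule were 40.5% of the 37, against 44.8% of the 15351 genes tested in all 5, and those that passed in 5 were 10.8%, against 5.53%. Passing means, here and below, an adjusted p under 0.05 in edgeR's quasi-likelihood test. Adjustment was by the Benjamini-Hochberg method over all genes tested in that schedule. Errors beside log2 fold changes are standard errors. Counts at an unadjusted p, from DESeq2 or with the length index have no share of all genes beside them. Such counts do not tell whether members differ from other genes.

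The members called, higher and lower in zQ175 DBD than in WT DBD libraries, were 3 and 7 in 2M_6M, where 17.2% of all genes tested were called higher and 11.5% lower, 28.7% in all. They were 2 and 5 in 2M_8M (all genes higher and lower: 9.32% and 9.37%, 18.7% in all), 1 and 3 in 6M_8M (3.98% and 5.15%, 9.12% in all), 5 and 5 in 6M_10M (11.9% and 12.3%, 24.2% in all) and 1 and 5 in 6M_12M (9.14% and 9.14%, 18.3% in all). The share of members called was 27.0%, 18.9%, 10.8%, 27.0% and 16.2% in the same order, so it stood near the share of all genes called in either direction. The median log2 fold change of the members lay between -0.07 and 0.04 over the schedules, against -0.01 to 0.03 over all genes.

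Of the members that passed in all 5 schedules, the RefSeq promoter windows (250 bases before to 50 after an annotated start, GRCm38.p6) of the sensor pair and of synaptophysin are shown here, 5′ to 3′ on the gene's strand and in lower case. Capitals mark a GC box (GGGGCGGGG or its reverse complement) in Syt9, at chr7:107370540-107370839 on the plus strand, and in Syp, at chrX:7638330-7638629 on the plus strand, and the core of a cAMP response element (TGACG on either strand) in the first of 2 Syt2 windows, at chr1:134646362-134646661 on the plus strand; the second Syt2 window, at chr1:134709050-134709349 on the plus strand, held none of the motifs searched.
Syt9: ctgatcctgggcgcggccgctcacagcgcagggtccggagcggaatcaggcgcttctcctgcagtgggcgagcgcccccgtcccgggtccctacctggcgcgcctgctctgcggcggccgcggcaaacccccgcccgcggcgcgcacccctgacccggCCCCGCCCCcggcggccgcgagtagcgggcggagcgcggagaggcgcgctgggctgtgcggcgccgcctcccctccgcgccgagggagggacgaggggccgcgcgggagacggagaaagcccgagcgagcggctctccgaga
Syp: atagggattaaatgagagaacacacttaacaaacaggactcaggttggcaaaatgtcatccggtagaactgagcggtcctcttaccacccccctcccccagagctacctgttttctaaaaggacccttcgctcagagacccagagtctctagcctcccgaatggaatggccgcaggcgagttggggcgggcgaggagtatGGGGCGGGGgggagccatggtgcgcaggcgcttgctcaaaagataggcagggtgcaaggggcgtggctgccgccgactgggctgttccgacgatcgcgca
Syt2 first start: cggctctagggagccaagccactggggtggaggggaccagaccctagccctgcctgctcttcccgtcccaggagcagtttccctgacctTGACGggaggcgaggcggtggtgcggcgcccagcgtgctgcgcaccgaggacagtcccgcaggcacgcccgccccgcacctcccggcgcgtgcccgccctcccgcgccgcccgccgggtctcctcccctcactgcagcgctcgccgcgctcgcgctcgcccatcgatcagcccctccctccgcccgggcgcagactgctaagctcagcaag
Syt2 second start: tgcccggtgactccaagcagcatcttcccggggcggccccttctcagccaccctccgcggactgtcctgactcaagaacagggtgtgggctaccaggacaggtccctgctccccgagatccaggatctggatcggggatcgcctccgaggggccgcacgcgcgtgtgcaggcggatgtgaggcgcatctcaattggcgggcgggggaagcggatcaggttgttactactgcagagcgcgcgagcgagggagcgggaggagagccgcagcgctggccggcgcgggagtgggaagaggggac
Such windows were found for 27 of the 37 members, 36 windows in all. The GC box was in 13 of the 36 windows and in 11.4% of 32851 windows of all genes, TGACG was in 8 of 36 and in 20.8% of all, and an Egr-type site (GCGNGGGCG on either strand) was in 5 of 36 and in 5.55% of all. A GC box can lie within a longer GC-rich run and overlap an Egr-type site. These matches are letters in a window and were not tested as sites.

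Syt2, a sensor typical of fast-spiking and hindbrain neurons, had 20.7 to 47.1 CPM in zQ175 DBD libraries of 2M_6M (median 36.8), against 54.1 to 77.2 CPM in WT DBD libraries (median 65.6). In 6M_10M it had 28.0 to 38.9 CPM in zQ175 DBD libraries (median 33.3), against 43.3 to 78.4 CPM in WT DBD libraries (median 69.1). The groups did not overlap in either schedule, nor in 2M_8M, and they overlapped in 6M_8M and 6M_12M. The log2 fold change was -0.91 ± 0.12 in 2M_6M (adjusted p 4.8e-08), -0.93 ± 0.17 in 2M_8M, -0.81 ± 0.18 in 6M_8M (adjusted p 0.0024), -1.01 ± 0.09 in 6M_10M and -0.95 ± 0.21 in 6M_12M.

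Syt9, a sensor of striatal and other limbic forebrain neurons, had 5.24 to 15.5 CPM in zQ175 DBD libraries of 2M_6M (median 13.7), against 20.8 to 27.0 CPM in WT DBD libraries (median 23.1). In 6M_12M it had 12.5 to 16.5 CPM in zQ175 DBD libraries (median 15.1), against 27.3 to 29.7 CPM in WT DBD libraries (median 28.4). The highest zQ175 DBD library was below the lowest WT DBD library in 2M_6M, 2M_8M and 6M_12M. The log2 fold change was -0.88 ± 0.11 in 2M_6M, -0.73 ± 0.08 in 2M_8M, -0.70 ± 0.13 in 6M_8M, -0.73 ± 0.09 in 6M_10M and -0.95 ± 0.06 in 6M_12M (adjusted p 6.2e-17).

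**Figure D2:**
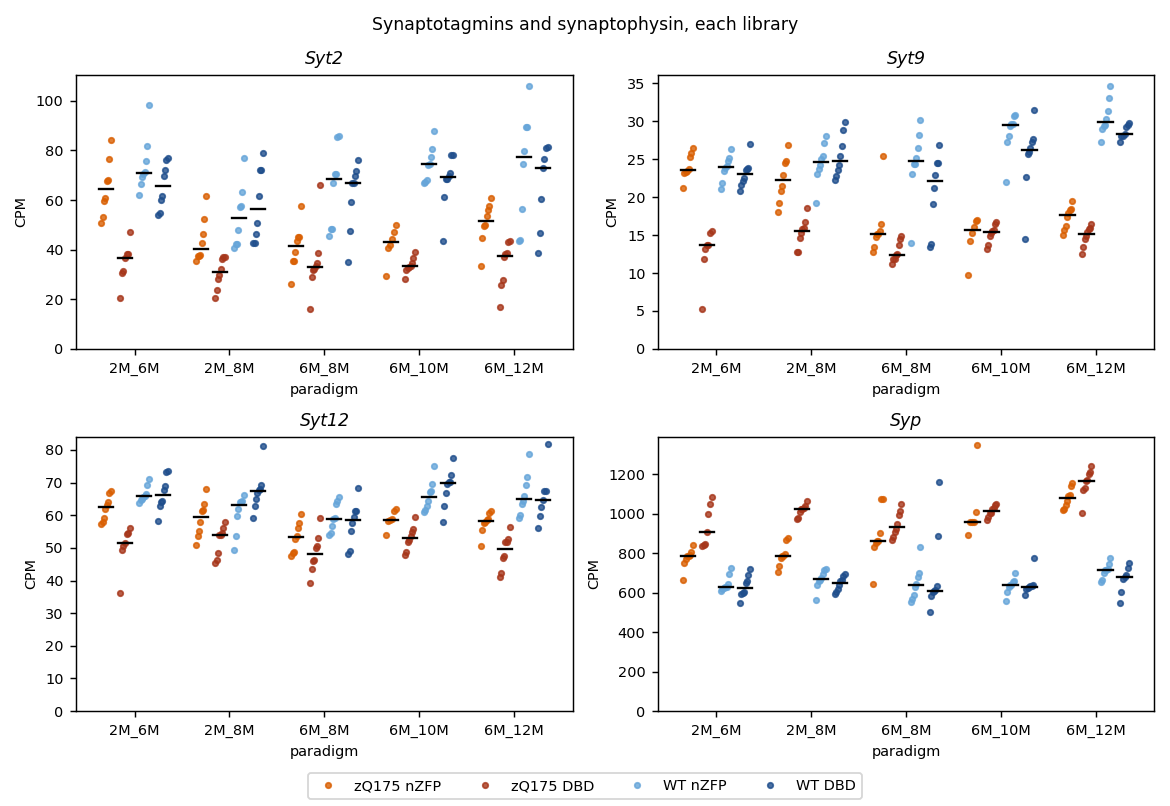
CPM of Syt2, Syt9, Syt12 and Syp in every library of zQ175 nZFP, zQ175 DBD, WT nZFP and WT DBD, by schedule; points are libraries sorted within a group and bars are group medians. For Syt9 in 2M_6M, zQ175 nZFP libraries lie at 21.2 to 26.5 CPM and zQ175 DBD libraries at 5.24 to 15.5 CPM, while both WT groups lie at 20.8 CPM or above.

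Syt12, a synaptotagmin that binds no calcium, moved less: its log2 fold change in zQ175 DBD relative to WT DBD libraries was -0.40 ± 0.06 in 2M_6M, -0.37 ± 0.06 in 2M_8M, -0.25 ± 0.07 in 6M_8M (adjusted p 0.020), -0.37 ± 0.05 in 6M_10M and -0.43 ± 0.08 in 6M_12M. In 2M_6M it had 36.2 to 56.0 CPM in zQ175 DBD libraries (median 51.6), against 58.2 to 73.7 CPM in WT DBD libraries (median 66.1), with no overlap. Syt10, known as the calcium sensor for IGF-1 release in the olfactory bulb, was low in CPM and passed in 3 schedules, with log2 fold changes of -0.91 ± 0.25 in 2M_6M, -0.91 ± 0.17 in 2M_8M and -1.15 ± 0.15 in 6M_12M. In 6M_12M it had 3.98 to 7.22 CPM in zQ175 DBD libraries (median 5.82), against 9.89 to 19.5 CPM in WT DBD libraries (median 12.4). In the other 2 schedules its log2 fold change was -0.69 ± 0.26 in 6M_8M and -0.76 ± 0.30 in 6M_10M. Syt6 passed in 2M_6M (-0.48 ± 0.10) and 2M_8M (-0.26 ± 0.08), and Syt16 passed in 6M_10M (-0.20 ± 0.05). The 1 synaptotagmin called higher was Syt7, a high-affinity sensor tied to asynchronous release and vesicle replenishment, in 6M_10M (0.24 ± 0.07).

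Synaptophysin was the member that rose in every schedule. Syp had 836 to 1082 CPM in zQ175 DBD libraries of 2M_6M (median 908), against 546 to 717 CPM in WT DBD libraries (median 625). In 6M_12M it had 1000 to 1242 CPM in zQ175 DBD libraries (median 1167), against 545 to 749 CPM in WT DBD libraries (median 680). All zQ175 DBD libraries were above all WT DBD libraries in 4 schedules, the exception being 6M_8M, where the 2 libraries that go against their label stand in the WT DBD group. The log2 fold change was 0.58 ± 0.06 in 2M_6M, 0.66 ± 0.05 in 2M_8M, 0.44 ± 0.12 in 6M_8M (adjusted p 0.016), 0.65 ± 0.06 in 6M_10M and 0.79 ± 0.06 in 6M_12M (adjusted p 3.1e-15). Other vesicle proteins called higher were Sv2a in 2M_6M (0.12 ± 0.04) and 6M_10M (0.24 ± 0.05), Syn2 in 2M_8M (0.24 ± 0.06) and 6M_10M (0.27 ± 0.05), Syn1 in 6M_10M (0.46 ± 0.12) and Syn3 in 2M_6M (0.44 ± 0.15). Rab3a and Rab3b, GTPases of the vesicle surface, and Sv2b and Sv2c did not pass in any schedule.

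The most abundant genes of the fusion machinery lay at similar levels in both genotypes. Snap25 had 879 to 1230 CPM in zQ175 DBD libraries of 2M_6M (median 1003), against 964 to 1103 CPM in WT DBD libraries (median 1055), and the log2 fold changes over schedules were -0.13 to -0.01. Vamp2 had 708 to 837 CPM in zQ175 DBD libraries of 6M_12M (median 796), against 722 to 814 CPM in WT DBD libraries (median 778), and its log2 fold changes were -0.08 to 0.04. Syt1 had 717 to 833 CPM in zQ175 DBD libraries of 6M_10M (median 777), against 426 to 870 CPM in WT DBD libraries (median 823), with log2 fold changes of -0.11 to 0.01. For these 3 genes zQ175 DBD and WT DBD libraries overlapped in every schedule. The standard errors of the log2 fold changes were at most 0.06 for Snap25 and Vamp2, and between 0.06 and 0.16 for Syt1. Complexin 2 (Cplx2), which clamps and helps trigger fusion, was lower in 2M_6M (-0.28 ± 0.06) and 6M_10M (-0.23 ± 0.05), and Cplx3 was lower in 6M_12M (-1.06 ± 0.29) at a median of 0.21 CPM in zQ175 DBD libraries and 0.59 CPM in WT DBD libraries. None of the 6 active zone genes, which include the scaffold giants Bassoon (Bsn) and Piccolo (Pclo), passed in any schedule; of their 30 values, 3 had an unadjusted p under 0.05 and DESeq2 called 1. With the length index as a covariate 7 of the 30 passed, namely Unc13c lower in 2M_8M (-0.18), 6M_10M (-0.21) and 6M_12M (-0.45), Bsn lower in 2M_6M (-0.24) and 2M_8M (-0.31), and Rims2 higher in 2M_8M (0.14) and 6M_10M (0.22). Their spread was wide: Bsn had 45.6 to 382 CPM in zQ175 DBD libraries of 6M_12M, against 51.0 to 373 CPM in WT DBD libraries.

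**Figure D3:**
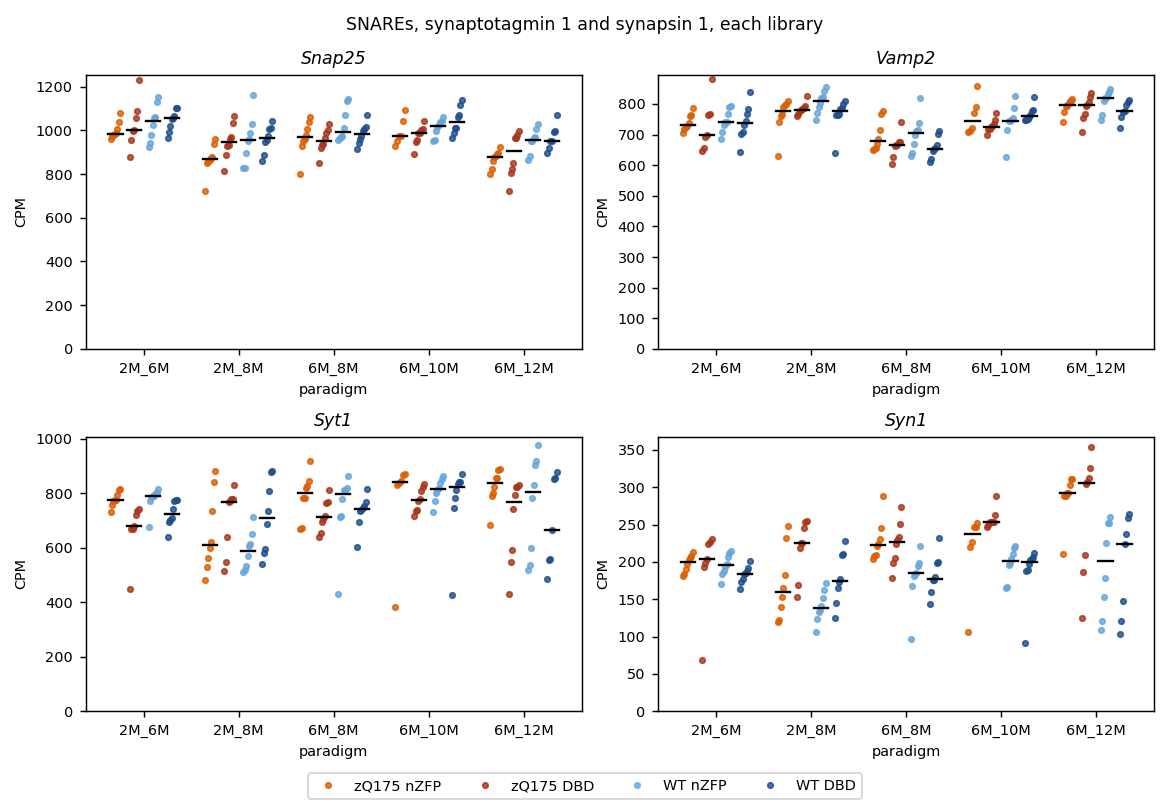
CPM of Snap25, Vamp2, Syt1 and Syn1 in every library of zQ175 nZFP, zQ175 DBD, WT nZFP and WT DBD, by schedule; points are libraries sorted within a group and bars are group medians. The groups lie on top of each other for Snap25 and Vamp2, while single libraries are low for Syt1 and Syn1, such as the zQ175 nZFP library of 6M_10M with 381 CPM of Syt1 and a length index of -1.29.

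Libraries that go against their label or stand apart bore on some of these calls. In 6M_8M, leaving out the libraries that go against their label gave 9 members called in place of 4, with 16.8% of all genes called in place of 9.12%. Leaving out WT nZFP replicate 8 as well gave 12, 6 higher and 6 lower, with 20.2% of all genes called. In that last fit Syp had a log2 fold change of 0.68 in place of 0.44, and Syt10 (-0.86), Syt16 (-0.23), Syt6 (-0.25), Sv2a (0.23), Syn1 (0.38), Syn2 (0.24), Syt7 (0.18) and Rab3a (0.17) passed in addition. In 2M_6M, without zQ175 DBD replicate 3, Syn3 had a log2 fold change of 0.14 in place of 0.44 and Syt13 of -0.10 in place of -0.14, neither of which passed, while Syn1 (0.22), Syn2 (0.20) and Syt16 (-0.17) passed, and 25.6% of all genes were called. In 6M_10M, without the 2 apart libraries and with 31.8% of all genes called, Syt6 (-0.25), Syt5 (0.16) and Syt10 (-0.91) passed as well. Syt2, Syt9, Syt12 and Syp passed in the same direction in every schedule with these libraries left out.

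Markers of the principal neurons differed between the genotypes as well. Of 10 medium spiny neuron markers, such as Ppp1r1b and Drd1, 9, 8, 9, 9 and 8 were called lower in zQ175 DBD than in WT DBD libraries in the 5 schedules (2M_6M, 2M_8M, 6M_8M, 6M_10M and 6M_12M), and 1 was called higher in 2M_6M. Their summed level in 2M_6M was 5470 to 7132 CPM in zQ175 DBD libraries and 9988 to 12335 CPM in WT DBD libraries, and in 6M_12M it was 5271 to 6593 CPM in zQ175 DBD libraries and 9848 to 13419 CPM in WT DBD libraries. None of these markers was at 0 in any library. Of 8 pan-neuronal markers, none was called lower in any schedule and 1 was called higher in 2M_6M, 6M_10M and 6M_12M. Of 7 cortical excitatory markers, 2, 2, 1, 3 and 2 were called higher in the same order of schedules. Their summed level was 107 to 158 CPM in zQ175 DBD libraries and 101 to 141 CPM in WT DBD libraries over all schedules, most of it from Lamp5, and Tbr1 and Neurod6 were among those at 0 in some libraries. The part of these cell markers in the differences of the release genes was not tested.

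**Figure D4:**
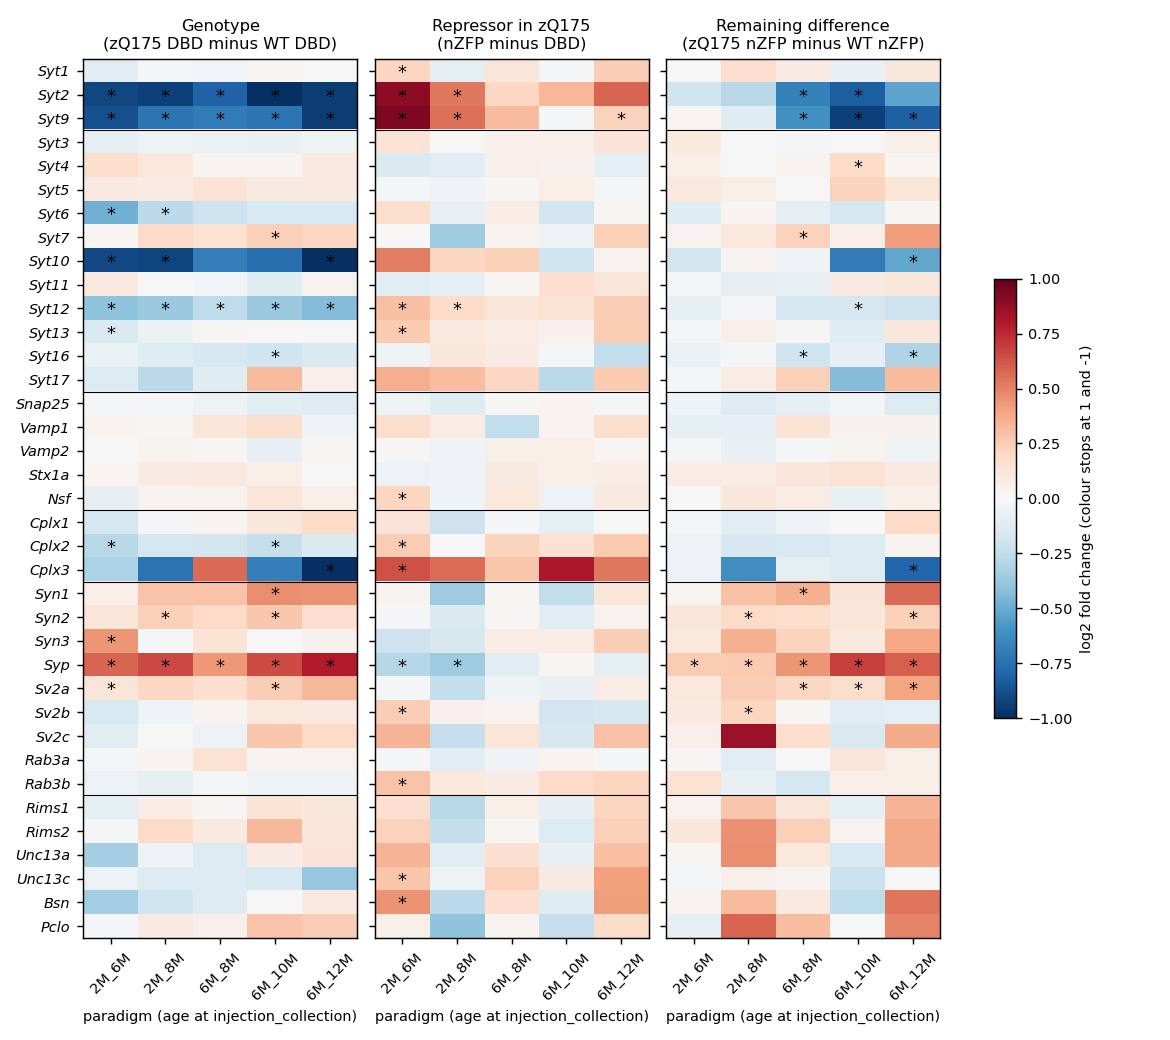
Log2 fold changes of the 37 release genes, grouped by role, in the 5 schedules for 3 comparisons: zQ175 DBD over WT DBD, zQ175 nZFP over zQ175 DBD, and zQ175 nZFP over WT nZFP. Asterisks mark an adjusted p under 0.05 and the colour scale stops at -1 and 1; Syt2 and Syt9 are low across the first comparison and high in the 2M_6M column of the second.

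Other genes of vesicle release and recycling, a list of 56 of which 52 or 53 were tested in a schedule, were counted in the same way. The numbers higher and lower in zQ175 DBD relative to WT DBD libraries were 4 and 7 in 2M_6M (21.2% of those tested), 3 and 3 in 2M_8M (11.5%), 2 and 1 in 6M_8M (5.66%), 13 and 5 in 6M_10M (34%) and 4 and 1 in 6M_12M (9.62%), against 28.7%, 18.7%, 9.12%, 24.2% and 18.3% of all genes. Snap47, a SNAP-25 relative, rose in 4 schedules, by 0.16 to 0.20 on the log2 scale. Doc2a, a high-affinity calcium sensor of spontaneous release, rose by 0.58 ± 0.19 in 2M_8M, 0.59 ± 0.16 in 6M_10M and 1.15 ± 0.20 in 6M_12M. Ppfia2, a liprin-alpha scaffold, and Cadps, the priming factor of dense-core vesicles, each rose in 3 schedules, Cadps by 0.40 ± 0.12 in 6M_12M. Napa, the alpha-SNAP that works with NSF to take SNARE complexes apart, fell in 4 schedules, with log2 fold changes of -0.27 to -0.17, and Rab3d fell in 4, with -0.44 to -0.29. Slc18a3, the vesicular acetylcholine transporter of cholinergic interneurons, was lower in 2M_6M (-0.28 ± 0.10) and 2M_8M (-0.24 ± 0.07), and Synpr (synaptoporin) was lower in 6M_10M (-0.45 ± 0.08).

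The second question was what the repressor did in zQ175 striatum, set against the DBD control. In 2M_6M, after 4 months of treatment begun at 2 months of age, all 3 fast calcium sensors were higher with nZFP: Syt2 and Syt9 had log2 fold changes of 0.90 and 0.93, and Syt1 of 0.22. In 2M_8M the pair Syt2 and Syt9 rose again, by 0.52 and 0.55, with Syt12, and Syp fell in both schedules. When injection was at 6 months, Syt9 in 6M_12M was the 1 member that passed in the main fit (0.23 ± 0.06, adjusted p 0.024). That call was lost without the filter on low counts (0.23, adjusted p 0.057), with the mouse as a block (0.16, adjusted p 0.17) and with Estop as the control (0.05, adjusted p 0.70). The zQ175 DBD libraries also served in the genotype comparison, so the 2 sets of values are not independent and are given side by side only.

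The members called, higher and lower in zQ175 nZFP than in zQ175 DBD libraries, were 12 and 1 in 2M_6M, where 8.8% of all genes tested were called higher and 14.4% lower, 23.2% in all, against 35.1% of the members. They were 3 and 1 in 2M_8M (all genes higher and lower: 4.16% and 2.9%, 7.06% in all), none in 6M_8M (0.0438% and 0.0687%, 0.112% in all), none in 6M_10M (0.562% and 0.41%, 0.972% in all) and 1 and 0 in 6M_12M (0.676% and 0.573%, 1.25% in all). At an unadjusted p under 0.05, 2 members in 6M_8M and 6 in 6M_10M passed, and DESeq2 called 0 and 0. The median log2 fold change of the members was 0.17 in 2M_6M, against -0.04 over all genes, and between -0.08 and 0.18 in the other schedules, against -0.01 to 0.01 over all genes.

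Syt2 had 50.7 to 84.4 CPM in zQ175 nZFP libraries of 2M_6M (median 64.4), against 20.7 to 47.1 CPM in zQ175 DBD libraries (median 36.8), with no overlap. In 6M_12M it had 33.5 to 60.8 CPM in zQ175 nZFP libraries (median 51.7), against 16.9 to 43.7 CPM in zQ175 DBD libraries (median 37.6), and these groups overlapped. The log2 fold change was 0.90 ± 0.12 in 2M_6M (adjusted p 2.3e-07), 0.52 ± 0.17 in 2M_8M (adjusted p 0.045), 0.21 ± 0.18 in 6M_8M, 0.33 ± 0.10 in 6M_10M (adjusted p 0.099) and 0.59 ± 0.20 in 6M_12M (adjusted p 0.19).

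Syt9 had 21.2 to 26.5 CPM in zQ175 nZFP libraries of 2M_6M (median 23.5), against 5.24 to 15.5 CPM in zQ175 DBD libraries (median 13.7), with no overlap. In 2M_8M it had 18.1 to 26.9 CPM in zQ175 nZFP libraries (median 22.2), against 12.8 to 18.6 CPM in zQ175 DBD libraries (median 15.5). In 6M_10M it had 9.77 to 17.0 CPM in zQ175 nZFP libraries (median 15.7), against 13.2 to 16.8 CPM in zQ175 DBD libraries (median 15.4). The first of these schedules separated the groups, the second nearly did and the last did not. The log2 fold change was 0.93 ± 0.11 in 2M_6M, 0.55 ± 0.08 in 2M_8M, 0.32 ± 0.13 in 6M_8M, -0.02 ± 0.10 in 6M_10M and 0.23 ± 0.06 in 6M_12M.

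Syp moved the other way. It had 663 to 842 CPM in zQ175 nZFP libraries of 2M_6M (median 785), against 836 to 1082 CPM in zQ175 DBD libraries (median 908), a log2 fold change of -0.29 ± 0.06. In 2M_8M it had 703 to 876 CPM in zQ175 nZFP libraries (median 787), against 973 to 1066 CPM in zQ175 DBD libraries (median 1022), with no overlap and a log2 fold change of -0.36 ± 0.05. In the 3 schedules with injection at 6 months its log2 fold changes were -0.10 to 0.01. Syt12 was higher in 2M_6M (0.30 ± 0.06) and 2M_8M (0.18 ± 0.06, adjusted p 0.049).

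The other members called in 2M_6M were higher with nZFP. They were the complexins Cplx2 (0.25 ± 0.06) and Cplx3 (0.64 ± 0.22), Syt13 (0.26 ± 0.05), the vesicle proteins Rab3b (0.28 ± 0.10) and Sv2b (0.25 ± 0.09), the ATPase Nsf that recycles SNAREs (0.22 ± 0.07), and the active zone genes Unc13c (0.28 ± 0.10) and Bsn (0.45 ± 0.14). Without zQ175 DBD replicate 3, the library of 2M_6M with a length index of -1.20, 7 members and 13.8% of all genes passed: Syt2 (0.80), Syt9 (0.80), Cplx2 (0.29), Syt12 (0.24), Syt13 (0.22), Syt1 (0.14) and Syp (-0.26). The 6 that did not pass without it were Rab3b (0.24), Sv2b (0.13), Cplx3 (0.65), Unc13c (0.29), Bsn (0.30) and Nsf (0.11). In 6M_10M, without the 2 apart libraries, Syt2 (0.42, adjusted p 3.1e-04) and Syt12 (0.19) passed.

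With the Estop virus in place of DBD as the control, 4 members passed in 2M_6M, namely Syt2 (0.72), Syt9 (0.62), Syt12 (0.26) and Syp (-0.35), with 7.38% of all genes called, and Sv2b turned in sign to -0.05. With the mouse as a block, which uses the 2 hemispheres of 1 animal, 6 passed there: Syt2 (0.85), Syt9 (0.82), Syt12 (0.30), Cplx2 (0.26), Syt13 (0.24) and Syp (-0.29), with 4.67% of all genes called. In 6M_12M the same block gave 4 calls, Syt2 (0.45), Unc13c (0.32), Syt12 (0.21) and Syt16 (-0.18), with 2.31% of all genes called.

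**Figure D5:**
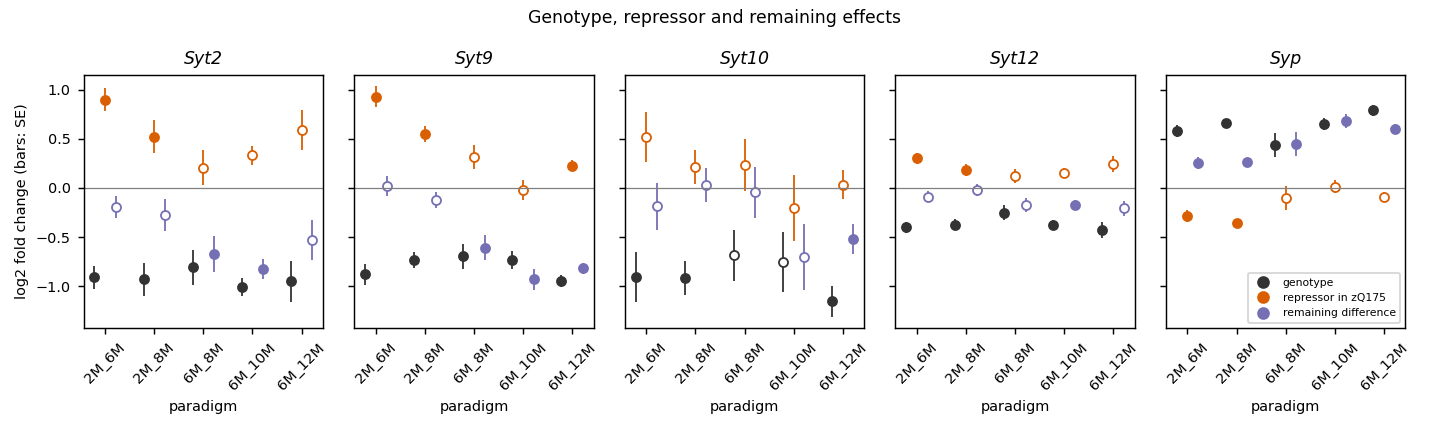
Log2 fold changes of Syt2, Syt9, Syt10, Syt12 and Syp with their standard errors in the 5 schedules, for zQ175 DBD over WT DBD, zQ175 nZFP over zQ175 DBD and zQ175 nZFP over WT nZFP. Filled points passed the test; with nZFP, Syt9 lies at 0.93 in 2M_6M and -0.02 in 6M_10M, both after 4 months of treatment.

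Medium spiny neuron markers moved here too. Of the 10, 9, 8, 0, 6 and 4 were called higher in zQ175 nZFP than in zQ175 DBD libraries in the 5 schedules, and 1 was called lower in 2M_6M. Their summed level in 2M_6M was 7978 to 9673 CPM in zQ175 nZFP libraries and 5470 to 7132 CPM in zQ175 DBD libraries, and in 6M_10M it was 6623 to 8174 CPM in zQ175 nZFP libraries and 5441 to 6253 CPM in zQ175 DBD libraries. In 2M_8M the length index had a median of -0.09 in zQ175 nZFP libraries and of 0.31 in zQ175 DBD libraries. The part of the markers and of the length index in these results was not tested.

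Of the 52 other release and recycling genes tested in 2M_6M, 11 were higher and 2 lower in zQ175 nZFP relative to zQ175 DBD libraries, a share of 25% against 23.2% of all genes. Of the 52 tested in 2M_8M, 3 were higher and 1 lower (7.69%, against 7.06% of all genes), and of the 53 tested in 6M_10M 1 was higher (1.89%, against 0.972%). Napa rose in 2M_6M (0.28 ± 0.05) and 2M_8M (0.14 ± 0.04), as did Stx6, a syntaxin of the Golgi and endosomes (0.18 ± 0.05 and 0.18 ± 0.06). Slc18a3 rose in 2M_6M (0.36 ± 0.10), and Slc17a8, the glutamate transporter VGLUT3 that striatal cholinergic interneurons also use, rose in 6M_10M (0.40 ± 0.09). Those called lower were Slc18a2, the vesicular monoamine transporter (-0.42 ± 0.16), and Vamp4 (-0.27 ± 0.08) in 2M_6M, and Sh3gl2 (endophilin A1, of vesicle endocytosis) in 2M_8M (-0.18 ± 0.05).

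The repressor binds CAG repeats, so the longest run of CAG units in each member's annotated transcripts (GENCODE, GRCm38) was read. Bsn held the longest, 4 units, and runs of 4 or more units occur in 1.72% of 55341 genes. Syt6, Syn3, Rims2 and Pclo held 3 units and the other 32 members 2. Bsn's promoter window is shown because it was the only member window with CAGCAGCAG (capitals; either strand), at chr9:108190334-108190633 on the minus strand, against 1.82% of all windows.
Bsn: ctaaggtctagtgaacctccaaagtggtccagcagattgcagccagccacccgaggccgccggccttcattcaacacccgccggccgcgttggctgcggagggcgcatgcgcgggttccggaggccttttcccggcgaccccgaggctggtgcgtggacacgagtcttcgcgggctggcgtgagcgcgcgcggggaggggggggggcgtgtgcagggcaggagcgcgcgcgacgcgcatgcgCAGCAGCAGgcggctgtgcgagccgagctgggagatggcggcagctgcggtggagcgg
Bsn was not lower with nZFP in zQ175 striatum in any schedule by the test, with log2 fold changes of -0.26 to 0.45. In WT striatum its log2 fold changes with nZFP were -0.78 to 0.14. The lowest was in 2M_8M (-0.78 ± 0.30, adjusted p 0.10 by the same test), and none passed. In that comparison the 6 active zone genes together had a median log2 fold change of -0.56. The length index had a median of -0.26 in those WT nZFP libraries and of 0.19 in those WT DBD libraries. The part of CAG runs and of the length index in these values was not tested.

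The third question was which differences between genotypes remained when both carried the repressor. In 2M_6M, Syp alone passed between zQ175 nZFP and WT nZFP libraries (0.25 ± 0.06), and Syt2 (-0.20 ± 0.11) and Syt9 (0.02 ± 0.10) did not. In the 3 schedules with injection at 6 months Syt9 passed in each, with log2 fold changes of -0.61 ± 0.12 in 6M_8M, -0.93 ± 0.10 in 6M_10M and -0.82 ± 0.06 in 6M_12M. Syp passed in all 5.

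The members called, higher and lower in zQ175 nZFP than in WT nZFP libraries, were 1 and 0 in 2M_6M (all genes higher and lower: 0.874% and 0.664%, 1.54% in all) and 3 and 0 in 2M_8M (4.05% and 2.62%, 6.67% in all). They were 4 and 3 in 6M_8M (7.89% and 9.18%, 17.1% in all), 3 and 3 in 6M_10M (10.3% and 9.28%, 19.6% in all) and 3 and 4 in 6M_12M (7.93% and 8.75%, 16.7% in all). Syt9 had 9.77 to 17.0 CPM in zQ175 nZFP libraries of 6M_10M (median 15.7), against 21.9 to 30.8 CPM in WT nZFP libraries (median 29.5). In 6M_12M it had 15.0 to 19.5 CPM in zQ175 nZFP libraries (median 17.7), against 27.2 to 34.7 CPM in WT nZFP libraries (median 29.9). Neither pair overlapped. Syt2 had 29.4 to 49.8 CPM in zQ175 nZFP libraries of 6M_10M (median 43.0), against 66.8 to 87.7 CPM in WT nZFP libraries (median 74.4), a log2 fold change of -0.82 ± 0.10, and it passed in 6M_8M as well (-0.67 ± 0.18).

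Syp had 893 to 1347 CPM in zQ175 nZFP libraries of 6M_10M (median 956), against 556 to 698 CPM in WT nZFP libraries (median 638), and 1020 to 1152 CPM in zQ175 nZFP libraries of 6M_12M (median 1078), against 653 to 775 CPM in WT nZFP libraries (median 714). Its log2 fold change was 0.26 ± 0.05 in 2M_8M, 0.44 ± 0.12 in 6M_8M, 0.68 ± 0.07 in 6M_10M and 0.60 ± 0.05 in 6M_12M. Sv2a, the vesicle protein bound by levetiracetam, was higher in 6M_8M (0.20 ± 0.06), 6M_10M (0.18 ± 0.05) and 6M_12M (0.39 ± 0.12). Others called higher were Syn2 in 2M_8M (0.19 ± 0.06) and 6M_12M (0.24 ± 0.07), Sv2b in 2M_8M (0.21 ± 0.07), Syn1 (0.35 ± 0.10) and Syt7 (0.23 ± 0.06) in 6M_8M, and Syt4 in 6M_10M (0.19 ± 0.06). Called lower were Syt12 in 6M_10M (-0.17 ± 0.05), Syt16 in 6M_8M (-0.20 ± 0.07) and 6M_12M (-0.30 ± 0.07), Syt10 in 6M_12M (-0.52 ± 0.15) and Cplx3 in 6M_12M (-0.79 ± 0.27). In 6M_10M, without the 2 apart libraries, 11 members were called in place of 6 and 24.3% of all genes in place of 19.6%, with Syn2 (0.18), Syn1 (0.27), Syt7 (0.14), Syt16 (-0.15) and Cplx2 (-0.20) in addition. Of the 10 medium spiny neuron markers, 4, 4, 9, 9 and 8 were called lower in zQ175 nZFP than in WT nZFP libraries in the 5 schedules, and 1 was higher in 6M_10M; their part in these results was not tested.

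Whether the repressor's effect differed between genotypes was tested as an interaction. In 2M_6M, where 3.27% of all genes passed, 4 members did, with the effect in zQ175 exceeding that in WT striatum by 0.90 ± 0.15 for Syt9, 0.72 ± 0.16 for Syt2 and 0.31 ± 0.08 for Syt12, and lying below it for Syp (-0.33 ± 0.08). In 2M_8M, with 1.99% of all genes, the 4 were Syt9 (0.61 ± 0.11), Syt12 (0.35 ± 0.08), Syt10 (0.94 ± 0.24) and Syp (-0.40 ± 0.07). The 2 hemispheres of a mouse carry different viruses, and with the mouse as a block Syt2 alone passed in 2M_6M (0.76, adjusted p 0.034), with Syt9 at 0.78 (adjusted p 0.051), Syt12 at 0.35 (adjusted p 0.075) and Syp at -0.33 (adjusted p 0.088). In 2M_8M that block left Syt9, Syt12 and Syp past the threshold and Syt10 at 0.83 (adjusted p 0.074). In 6M_8M, 6M_10M and 6M_12M no member passed, with 0%, 0.0505% and 0% of all genes in the same order; at an unadjusted p under 0.05, 0, 3 and 3 members passed, and DESeq2 called 0, 0 and 0.

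In WT striatum the repressor's calls among the members all fell in 2M_8M in the main fit. Between WT nZFP and WT DBD libraries 3 were called there, all lower, a share of 8.11% against 2.98% of all genes. They were Syt6 (-0.37 ± 0.08), Syt10 (-0.73 ± 0.17) and Sv2c (-1.09 ± 0.31). At an unadjusted p under 0.05, 15 members passed there, and DESeq2 called 4, with no share of all genes given for either count. The median log2 fold change of the 6 active zone genes was -0.56, against 0.00 over all genes, and none of them passed. Sv2c had 11.7 to 26.5 CPM in WT nZFP libraries (median 15.8), against 16.9 to 54.5 CPM in WT DBD libraries (median 30.9), and in the same schedule the length index had a median of -0.26 in WT nZFP libraries and 0.19 in WT DBD libraries. With the length index as a covariate Sv2c had a log2 fold change of -0.31 and did not pass, while Syt6 (-0.23) and Syt10 (-0.73) did. No member was called in the other 4 schedules, where 0.268%, 0.581%, 0.48% and 0.238% of all genes were called in 2M_6M, 6M_8M, 6M_10M and 6M_12M; 4, 2, 4 and 1 members were at an unadjusted p under 0.05, and DESeq2 called 0, 0, 0 and 1. Without the apart libraries Syt6 was called in 6M_10M (-0.26).

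The 2 control viruses were set against each other as a background. DBD relative to Estop gave 1 call in zQ175 striatum of 2M_6M (Sv2b, -0.30, with 4.5% of all genes called) and 1 of 6M_10M (Snap25, -0.17, with 0.234%). In zQ175 striatum of 2M_6M, however, 16 members were at an unadjusted p under 0.05, and DESeq2 called 3, with no share of all genes given for either count. The median log2 fold change of the members there was -0.17, against 0.01 over all genes. Those zQ175 DBD libraries are also the reference of the repressor comparison in 2M_6M. In WT striatum it gave Vamp1 in 2M_8M (-0.29, with 0.196% of all genes) and Cplx1 (-0.20) and Cplx2 (-0.21) in 6M_10M (0.669%). In the other 6 comparisons of control viruses no member was called. The share of all genes called there was 0.184%, 0.0562% and 0.29% in zQ175 striatum of 2M_8M, 6M_8M and 6M_12M, and 0.108%, 0.188% and 0.167% in WT striatum of 2M_6M, 6M_8M and 6M_12M, with 1 to 6 members at an unadjusted p under 0.05 and at most 1 called by DESeq2. In 6M_12M, where the replicate numbers of the virus groups deviated together, a fit with the replicate number as a block gave 1 call in zQ175 and 1 in WT striatum.

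Differences between schedules were tested in 1 fit of all 30 groups. The genotype difference in 6M_12M minus that in 2M_6M gave no call among the members, with 0.238% of all genes called. The repressor's effect in zQ175 striatum in 6M_10M minus that in 2M_6M, both after 4 months of treatment, was called for 2 members, where 12.3% of all genes were: Syt9 (-0.96 ± 0.15, adjusted p 6.2e-07) and Sv2b (-0.45 ± 0.12). Without the apart libraries Sv2b had -0.21 and did not pass. The repressor's effect in 6M_12M minus that in 2M_8M, both after 6 months, gave no call, with 0.0834% of all genes called. For these 2 comparisons without a call, 4 and 10 members were at an unadjusted p under 0.05, and DESeq2 called 0 and 1.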

How the data were processed

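Expected counts from RSEM, on GRCm38, were made and deposited by the authors, per the submitters' processing notes; no versions were found there. Libraries were made from polyadenylated RNA, per the labels' protocols. A deposited second table is named FPKM by the authors, but each of its columns sums to 1e+06, so its values are treated here as TPM. Expected counts were rounded (90.3% were whole) and 6 vector entries, at most 0.669% of a library's counts, were kept out of library sizes. CPM were computed with TMM-scaled library sizes and carry no length correction. Each schedule was fitted with its 6 groups and sex in edgeR 4.0.16 (R 4.3.3; TMM, filterByExpr, robust quasi-likelihood F-test, threshold 0.05 after Benjamini-Hochberg adjustment over 15523 to 16000 genes), and contrasts between schedules used 1 fit of all 30 groups. Standard errors are the log2 fold change over the square root of F. The fitting script was tested on simulated data. Alternatives were DESeq2 1.42.0, other size factors, no filter, Estop as control, libraries left out, and blocks or a length covariate. The mouse and replicate blocks were fixed terms of the edgeR fit.

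The members and lists were chosen with earlier results of these data known. Every member was counted; those named with levels are Snap25, Syt1, Syn1, Vamp2 and Syp, and up to 5 in each direction per main comparison, by the number of schedules passed and then by mean log2 fold change, at a mean of at least 1 CPM. Other members are named with a fold change where they passed. Values of 1 cortical marker are not reported here.

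Libraries of a group come from different mice, so the spread within a group is a spread between mice. Groups of the same genotype and schedule share some mice, whose 2 hemispheres carry different viruses. Over the virus comparisons within a genotype, the median correlation of same-mouse pairs was 0.067 to 0.86. It was 0.85 (lowest 0.80) for zQ175 nZFP with zQ175 DBD in 2M_8M. The labels number replicates within groups. In 6M_12M every pair of same-numbered libraries deviated together (all correlations over 0.1) for WT nZFP with WT DBD and for DBD with Estop in both genotypes. No other comparison met that rule. For zQ175 DBD with WT DBD in 6M_12M the median correlation was 0.75 (lowest 0.054), against -0.39 in other pairs. The main fit has no pairing of hemispheres, so its p-values for virus comparisons within a genotype leave the shared mice out of account.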

Additional observations from a re-analysis of the deposited data

Results flagged for a closer look

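Among 120 groups of library values (Syt2, Syt9, Syt12, Syp, Snap25 and Syt1 and their groups), 15 held a library far from the others of its group, its gap to the nearest library being above Dixon's 95% critical value for the group's range. Chance flags about 1 in 20 groups, and groups of different genes share libraries, so these are not independent. Several of these are the libraries with a low length index or with vector reads against their label. zQ175 DBD replicate 3 of 2M_6M was low in Syt9 (5.24 CPM), Syt12 (36.2 CPM) and Syt1 (447 CPM). zQ175 nZFP replicate 2 of 6M_10M was high in Syp (1347 CPM) and low in Syt1 (381 CPM). WT DBD replicate 2 of 6M_10M was high in Syp (773 CPM) and low in Syt1 (426 CPM). WT nZFP replicate 8 of 6M_8M was low in Syt9 (14.0 CPM) and Syt1 (430 CPM). zQ175 nZFP replicate 5 of 6M_8M, whose transgene reads are at the control level, was high in Syt9 (25.5 CPM). The remaining values were Syt2 in zQ175 DBD replicate 1 of 6M_8M (66.2 CPM), Syt9 in WT nZFP replicate 2 of 6M_10M (21.9 CPM), Syt12 in WT DBD replicate 6 of 2M_8M (81.3 CPM), Snap25 in zQ175 nZFP replicate 2 of 2M_8M (721 CPM) and Syt1 in WT nZFP replicate 1 of 2M_6M (675 CPM).

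The repressor's effect differed between genotypes by a tested interaction for 4 members in 2M_6M, Syt9 (0.90 on the log2 scale), Syt2 (0.72), Syt12 (0.31) and Syp (-0.33), and for 4 in 2M_8M, Syt10 (0.94), Syt9 (0.61), Syt12 (0.35) and Syp (-0.40). With the mouse as a block, Syt2 alone of these passed in 2M_6M, and Syt10 did not pass in 2M_8M, as given above. The effect in zQ175 striatum differed between schedules, in 6M_10M relative to 2M_6M, for Syt9 (-0.96) and Sv2b (-0.45). Sv2b did not pass there without the apart libraries.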

How the results depend on the processing

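Counts of members called that moved by over 1.5 times are given per alternative, and the cause was not tested. Most are given without the share of all genes called in the same fit. They therefore do not tell whether members moved more than other genes. Comparisons are genotype (zQ175 DBD against WT DBD), repressor (zQ175 nZFP against zQ175 DBD), remaining difference (zQ175 nZFP against WT nZFP), repressor in WT (WT nZFP against WT DBD), interaction, and control viruses (DBD against Estop); schedule differences are 6M_10M minus 2M_6M and 6M_12M minus 2M_8M of the repressor's effect.

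DESeq2 called 1 member for the repressor in WT in 6M_12M, for control viruses in zQ175 3 in 2M_6M and 1 each in 2M_8M and 6M_8M, 1 for those in WT in 6M_8M and 1 for 6M_12M minus 2M_8M. RLE size factors gave 1 for the last. Without the filter on low counts the repressor had 2 in 2M_8M and 0 in 6M_12M, the remaining difference 1 in 2M_8M, and control viruses 0 in zQ175 of 2M_6M and 6M_10M and, in WT, 0 in 2M_8M and 1 in 6M_10M.

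With Estop as the control, the genotype difference had 9 in 6M_8M, the repressor 4 in 2M_6M, 1 in 6M_10M and 2 in 6M_12M, the repressor in WT 1 each in 2M_8M and 6M_10M, the interaction 2 in 2M_8M and 6M_10M minus 2M_6M 1; Sv2b's repressor effect in 2M_6M turned to -0.0511.

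With the length index as a covariate, genotype gave 15 in 2M_8M, 8 in 6M_8M, 17 in 6M_10M and 15 in 6M_12M, the repressor 2 in 6M_10M and 5 in 6M_12M, the remaining difference 11 in 2M_8M and 14 each in 6M_10M and 6M_12M, the repressor in WT 2 in 6M_10M and 1 in 6M_12M, and the interaction 7 in 2M_8M and 1 in 6M_12M. Control viruses gave, in zQ175, 2 in 2M_8M, 2 in 6M_10M and 1 in 6M_12M and, in WT, 1 in 2M_6M and 2 each in 2M_8M and 6M_12M; the genotype difference in 6M_12M minus 2M_6M gave 1. Signs turned for Cplx2 with the repressor in WT of 2M_8M (0.28) and, in the remaining difference, for Syt7 in 2M_8M (-0.15) and Unc13c in 2M_8M (-0.22) and 6M_12M (-0.17).

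With the mouse as a block, the repressor had 6 in 2M_6M and 4 in 6M_12M, the repressor in WT 1 in 2M_8M, the interaction 1 in 2M_6M, control viruses in zQ175 0 in 2M_6M, 1 in 2M_8M, 0 in 6M_10M and 3 in 6M_12M, and in WT 0 in 6M_10M and 1 in 6M_12M. With a replicate block, genotype had 14 in 6M_12M, the repressor 18, the remaining difference 21, control viruses 1 in zQ175 and 1 in WT of 6M_12M and 0 in zQ175 of 2M_6M; 6M_10M minus 2M_6M had 5 and 6M_12M minus 2M_8M had 8. For genotype, repressor and remaining difference, some same-numbered pairs were not correlated over 0.1. For genotype in 6M_12M, though, same-numbered pairs had a median correlation of 0.75, against -0.39 in other pairs. The replicate block moved no other count by over 1.5 times.

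Without the libraries against their label, genotype had 9 in 6M_8M, control viruses 0 in zQ175 of 2M_6M and 6M_12M minus 2M_8M had 1. Without the apart libraries, the repressor had 7 in 2M_6M and 2 in 6M_10M, the remaining difference 11 in 6M_10M, the repressor in WT 1 in 6M_10M, control viruses in zQ175 0 in 2M_6M and 2 in 6M_10M, and both schedule differences 1. Without both and WT nZFP replicate 8 of 6M_8M, chosen after seeing the data, these counts were the same and genotype had 12 in 6M_8M and control viruses in WT 1 in 2M_6M.

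Of the values of named members, those that kept their sign and their side of the threshold were 651 with the length index (64 gained a call, 3 lost it, 4 turned), 685 with the replicate block (36 gained, 1 lost), 406 with Estop (17 gained, 13 lost, 1 turned), 451 with the mouse block (11 gained, 13 lost), 692 without both kinds of library and replicate 8 (26 gained, 4 lost), 701 without the apart libraries (17 gained, 4 lost), 712 without those against their label (8 gained, 2 lost), 710 without the filter (12 lost), 708 with DESeq2 (14 gained) and 715 with RLE (5 gained, 2 lost). Libraries held 2.80e+07 to 6.13e+07 counts, and the spread between libraries of a group reached 1.03 (SD on the log2 scale) for a long gene, Bsn.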
